A study of Mus musculus with 6 samples.

Results

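The liver transcripts of 28 genes of cholesterol synthesis, its control by SREBP2, esterification, efflux and uptake were followed in male mice of 2 genotypes, out of 29734 genes in the deposited table. The members were a fixed list of gene symbols, chosen with earlier results of these data known. They were 8 enzymes from acetyl-CoA to squalene and 10 enzymes from squalene to cholesterol. The others were 4 genes of SREBP2 control, 3 of sterol transfer and esterification and 3 of efflux and uptake. Each symbol matched 1 row, and all 28 passed the filter on low counts that left 18931 genes for testing. The Prdx1C52S group (libraries C52S 1, C52S 2 and C52S 4) carried peroxiredoxin 1 with serine in place of cysteine 52, and the WT group (WT 6, WT 8 and WT 9) carried the unaltered gene. All 6 mice were male, began a Western diet (WD, rich in fat and sugar) at 8 weeks of age and ate it for 20 weeks, so no group on another diet enters the comparison. The sources used here do not say how the allele was made, whether the groups were littermates or whether RNA was pooled, and p-values measure only the spread between these libraries. Peroxiredoxin 1 is a peroxidase that removes hydrogen peroxide through this cysteine. Prdx1 transcripts lay at 247 ± 12.2 FPKM (fragments per kilobase of transcript, scaled to the library; mean ± SD, n = 3) in C52S and 246 ± 20.7 in WT (log2 fold change 0.28, SE 0.18, adjusted p = 0.347 in edgeR), which does not check the genotype, since a changed residue leaves the transcript in place.

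Cholesterol is built from acetyl-CoA through mevalonate, isoprenoids and squalene, and the first sterol, lanosterol, is then trimmed to cholesterol. The transcription factor SREBP2 is held in the endoplasmic reticulum by SCAP and the INSIG proteins while sterols are plentiful. When they fall, SCAP carries it to the Golgi, where it is cut free and switches on nearly all of the synthesis enzymes, and INSIG1 itself, in hepatocytes. SREBPs bind short sterol elements near gene starts and act together with NF-Y, which binds the CCAAT box, and Sp1, which binds the GC box.

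Promoter windows from RefSeq (GRCm38.p6; 250 bases before to 50 after a start) were found for 22 of the 28 members, in 28 windows. None was found for Fdft1, Fdps, Scarb1, Soat2, Sqle and Stard4. Searched on both strands, the sterol element TCACNCCAC was in 1 member window, that of Hmgcs1, and in 1.24% of the 32851 windows of all genes. Only this exact pattern was searched, so a window without it may still hold a sterol element of other letters. The CCAAT box (CCAAT) was in 19 of 28 member windows (67.9%, against 37.4% of all windows) and the GC box (GGGCGG) in 24 (85.7%, against 35.7%). No pair of different motifs overlapped in the member windows. The promoters of 5 members are shown: Hmgcs1, which holds the sterol element 137 bases before the start, Insig1 and Sc5d, with the largest fold changes of a regulator and of an enzyme, Soat1, lower in C52S, and Srebf2, whose level was nearly equal in the groups. Capitals mark the motifs. The stretches end at the RefSeq start or at the boundary of the gene in the table, whichever comes first; they lie at chr13:119690151-119690350 (plus strand), chr5:28071163-28071362 (plus), chr9:42264301-42264500 (minus), chr1:156474332-156474531 (minus) and chr15:82147019-82147180 (plus).
Hmgcs1: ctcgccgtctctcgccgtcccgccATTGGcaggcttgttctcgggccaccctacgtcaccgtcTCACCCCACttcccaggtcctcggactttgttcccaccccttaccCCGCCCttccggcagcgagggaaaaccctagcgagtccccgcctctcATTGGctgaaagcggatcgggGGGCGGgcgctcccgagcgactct
Insig1: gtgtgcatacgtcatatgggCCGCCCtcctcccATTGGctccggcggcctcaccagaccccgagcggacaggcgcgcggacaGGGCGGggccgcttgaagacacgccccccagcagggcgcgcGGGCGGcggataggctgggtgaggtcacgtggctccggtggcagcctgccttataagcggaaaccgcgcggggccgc
Sc5d: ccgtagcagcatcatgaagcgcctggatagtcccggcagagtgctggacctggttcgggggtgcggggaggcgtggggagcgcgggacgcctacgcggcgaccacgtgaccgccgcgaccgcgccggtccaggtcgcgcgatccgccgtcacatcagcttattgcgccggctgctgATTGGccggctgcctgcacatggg
Soat1: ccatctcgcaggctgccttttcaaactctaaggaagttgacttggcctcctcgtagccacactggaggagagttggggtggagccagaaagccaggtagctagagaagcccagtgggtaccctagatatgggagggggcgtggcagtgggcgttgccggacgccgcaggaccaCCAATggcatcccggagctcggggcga
Srebf2: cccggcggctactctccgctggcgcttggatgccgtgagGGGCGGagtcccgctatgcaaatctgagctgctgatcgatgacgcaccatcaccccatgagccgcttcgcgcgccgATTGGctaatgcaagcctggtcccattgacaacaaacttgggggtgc

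More members had a positive than a negative fold change in the C52S livers, and no member passed the edgeR test over all genes. The log2 fold change (C52S minus WT, edgeR with TMM scaling, given with its SE) was positive for 21 of 28 members and negative for 7, with a median of 0.39 beside -0.03 over all genes tested. At an unadjusted p under 0.05, 15 members were higher (53.6%) beside 11.5% of all genes, and 1 was lower (3.57%) beside 14.8%. The TMM-scaled values of the 2 groups did not overlap for 14 higher members (50%) beside 16.9% of all genes, and for 1 lower member beside 18%. Since the members were chosen with earlier results of these data known, these shares describe the list and do not test it. At an adjusted p under 0.05 the edgeR quasi-likelihood test called 0 members and 0 genes in either direction (0% of 18931). DESeq2 called 12 members higher (8.02% of all genes) and voom with library weights called 7 (5.4%). The 7 were Acat2, Hmgcs1, Pmvk, Sc5d, Insig1, Insig2 and Soat2. DESeq2 called these and Mvd, Tm7sf2, Hsd17b7, Ebp and Stard4. Without WT 8 the edgeR test called 4 members higher, Sc5d, Insig1, Soat2 and Acat2, beside 2.7% of all genes, and without WT 9 it called Insig1 alone among the members, beside 0.321%. Soat1, the 1 lower member, no longer had an unadjusted p under 0.05 without C52S 2, without WT 6 or without WT 9. With a library left out, more genes separate: without WT 8, the groups of 4 lower members (14.3%) did not overlap beside 21.4% of all genes, and without WT 9 those of 2 (7.14%) beside 26.5%, so both shares lay below that of all genes.

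The scaling of the libraries decides part of this count. TMM factors lay between 0.883 and 0.92 in C52S and at 1.04, 1.28 and 1.03 in WT 6, WT 8 and WT 9, and they moved the median of all genes by 0.31 on the log2 scale relative to library totals. With library totals only, 7 members were higher at an unadjusted p under 0.05 (3.73% of all genes) and 4 were lower (30.4%), and the median of all genes was -0.34 beside 0.09 for the members. On FPKM as deposited, the groups did not overlap for the same split: 7 members higher (6.09% of all genes) and 4 lower (36.7%). The 7 were Insig1, Insig2, Sc5d, Hmgcs1, Acat2, Tm7sf2 and Soat2, and the 4 were Soat1, Abca1, Mylip and Scarb1. The members' median lay above that of all genes by 0.42 on the log2 scale with TMM factors and by 0.43 with library totals. The distance was smaller on log2(FPKM + 1), at 0.26. With TMM factors it was 0.41 without WT 8 and 0.32 without WT 9.

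**Figure D1:**
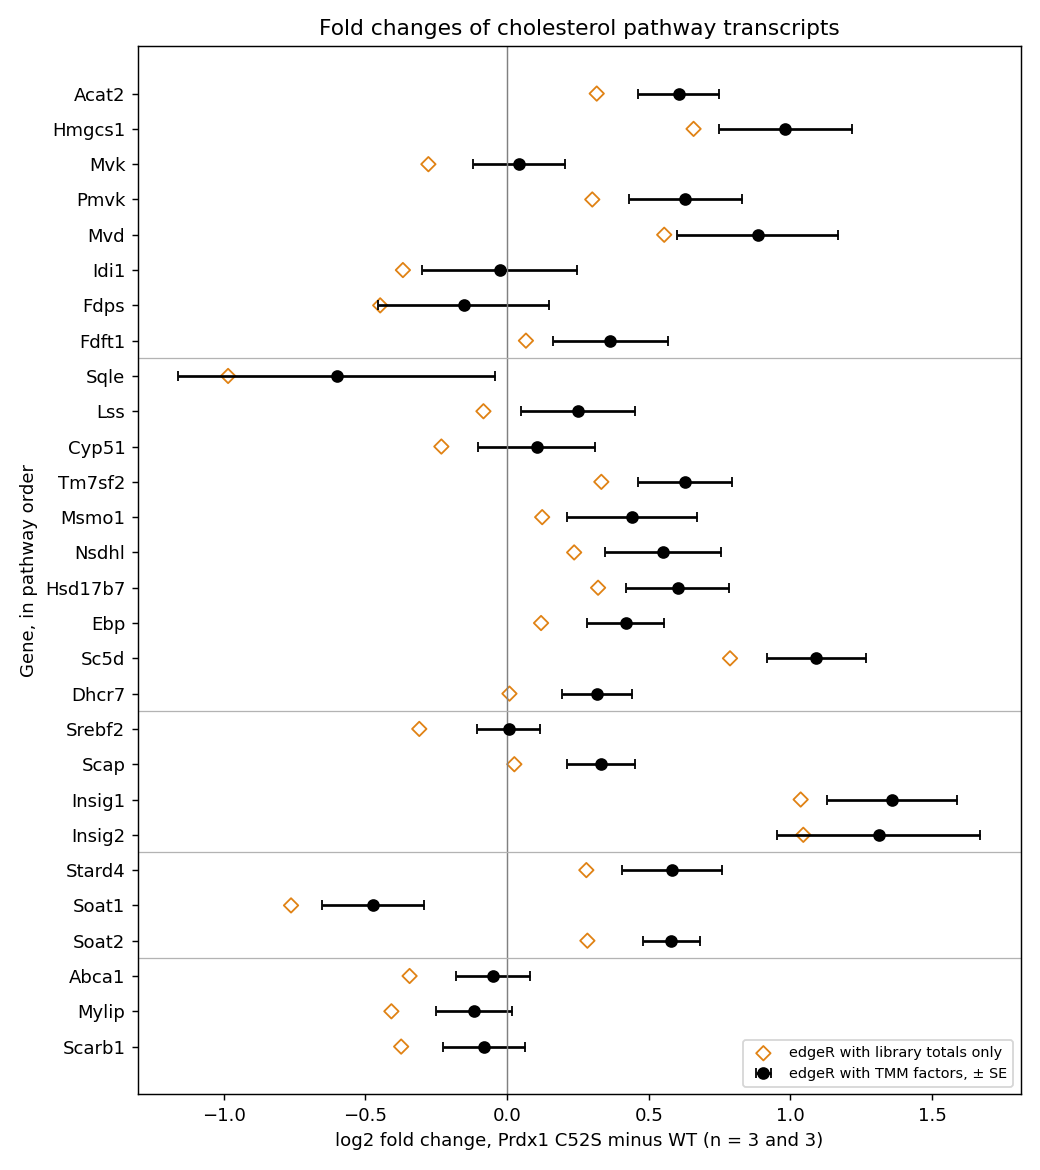
log2 fold changes of the 28 genes, C52S minus WT, in pathway order from the acetyl-CoA enzymes (top) to efflux and uptake (bottom). Black points are edgeR values with TMM factors, bars ± SE, and open diamonds are values with library totals only; Insig1, Insig2 and Sc5d lie farthest right on both, and Abca1, Mylip and Scarb1 lie near 0 on the first and below it on the second.

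WT 8 stood apart from WT 6 and WT 9 in cell markers: 10 bile duct genes summed to 365, 864 and 235 FPKM in WT 6, WT 8 and WT 9, beside 65.7 to 136 in C52S, and 6 pericentral hepatocyte genes to 2188, 587 and 2079, beside 2599 to 3298. Spp1 made up most of the bile duct sum, at 342, 736 and 220 FPKM in WT and 125, 60.1 and 63.4 in C52S. Cyp2e1 made up most of the pericentral sum, at 1808, 490 and 1581 FPKM in WT and 1862, 2512 and 2019 in C52S. Both genes are named after their values were seen. At an unadjusted p under 0.05, 9 of the bile duct genes were lower in C52S and 3 of the pericentral genes higher, with 0 in the other direction; Krt19, a duct keratin, was at 3.97, 30.9 and 2.09 FPKM in WT and 0.507 to 1.59 in C52S, and Glul, the pericentral glutamine synthetase, at 253, 33.3 and 262 and at 330 to 347. Of 8 stellate cell and fibroblast genes 4 were lower, and of 5 T cell genes 3, with 0 higher. The 6 endothelial genes summed to 55.4, 21.5 and 56.0 FPKM in WT 6, WT 8 and WT 9 and to 45.3 to 52.4 in C52S; their log2 fold changes were positive for 5, with a median of 0.30, and 1 was lower at an unadjusted p under 0.05. The resident macrophage genes Clec4f (44.8, 2.56 and 46.0 FPKM in WT 6, WT 8 and WT 9) and Cd5l (158, 28 and 182), named after their values were seen, were also lowest in WT 8. The part of these cell markers in the members' values was not tested. The members' median was 0.40 without WT 8, with 23 positive and 5 negative, and 0.28 without WT 9, with 19 positive and 9 negative. Leaving out WT 8 does not remove all marker differences. Krt19 in WT 6 and WT 9 (3.97 and 2.09 FPKM) also lay above C52S (0.507 to 1.59). Hepatocyte markers were abundant in all libraries (9 of 10 genes were in the table, summing to between 29625 and 32376 FPKM), so the labelled tissue fits its markers. In bulk tissue, fewer cells of a type and less RNA per cell cannot be told apart. The estimated counts per library summed to between 60326469 and 76164949, and no member was below 0.741 FPKM in any library.

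Both of the first enzymes of the pathway had groups that did not overlap, and neither passed the adjusted edgeR test. Acat2, the cytosolic thiolase that joins 2 acetyl-CoA units, was at 38.8, 35.6 and 34.1 FPKM in C52S 1, C52S 2 and C52S 4 and at 32.4, 28.1 and 26.1 in WT 6, WT 8 and WT 9 (log2 fold change 0.61, SE 0.14, adjusted p = 0.0874 in edgeR). Every C52S library lay above every WT library. Hmgcs1, the cytosolic synthase of HMG-CoA, was at 30.7, 24.2 and 26.8 FPKM in C52S and 18.6, 22.8 and 10.1 in WT (log2 fold change 0.98, SE 0.23, adjusted p = 0.0874 in edgeR). These groups did not overlap either, although C52S 2 and WT 8 were close, and WT 9 was the lowest. The Hmgcs1 log2 fold change was 0.75 without WT 9.

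The kinases and the decarboxylase that follow had unequal differences. Mvk, mevalonate kinase, was at 2.77 ± 0.328 FPKM in C52S and 3.34 ± 0.904 in WT (log2 fold change 0.04, SE 0.16, adjusted p = 0.89 in edgeR), and its groups overlapped. Pmvk, phosphomevalonate kinase, was at 14.5 ± 1.24 and 11.7 ± 4.25 FPKM (log2 fold change 0.63, SE 0.20, adjusted p = 0.119 in edgeR). Mvd, the decarboxylase that yields the isoprenoid unit, was at 6.63, 4.60 and 4.82 FPKM in C52S and 3.80, 5.06 and 2.00 in WT (log2 fold change 0.88, SE 0.28, adjusted p = 0.121 in edgeR). For Pmvk and Mvd the groups overlapped on FPKM, through WT 8, and did not overlap after TMM scaling.

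The prenyl enzymes before squalene had overlapping groups. Idi1, the isomerase of the isoprenoid unit, ran from 6.41 to 8.23 FPKM in C52S and was at 9.55, 14.4 and 5.20 in WT (log2 fold change -0.03, SE 0.27, adjusted p = 0.963 in edgeR). Fdps, farnesyl diphosphate synthase, was at 27.9, 22.9 and 21.2 FPKM in C52S and 45.4, 33.5 and 18.8 in WT (log2 fold change -0.15, SE 0.30, adjusted p = 0.782 in edgeR). In both genes the WT libraries spread wider than the whole C52S group and enclosed it. Fdps was 0.25 on the log2 scale without WT 6, the opposite sign. Fdft1, squalene synthase, was at 13.2 ± 2.28 and 12.6 ± 3.12 FPKM (log2 fold change 0.37, SE 0.20, adjusted p = 0.291 in edgeR).

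Around lanosterol, the transcripts of Sqle, Lss and Cyp51 had overlapping groups. Sqle, squalene epoxidase, an oxygen-requiring control point, was at 1.71, 1.25 and 0.741 FPKM in C52S and 1.86, 4.67 and 0.788 in WT. WT 8 was 5.93-fold above WT 9, the widest ratio within WT among the 28 genes, and the other 5 libraries lay within 0.741 to 1.86 FPKM. The Sqle log2 fold change was -0.60 (SE 0.56, adjusted p = 0.533 in edgeR) with all libraries and 0.10 without WT 8. Lss, which closes the rings to lanosterol, was at 3.27 ± 0.557 and 3.44 ± 1.36 FPKM (log2 fold change 0.25, SE 0.20), and Cyp51, which removes its first methyl group, at 9.50 ± 0.99 and 11.1 ± 4.49 (log2 fold change 0.10, SE 0.21). WT 8 had the highest FPKM of the 6 libraries for Sqle, Lss and Cyp51, and WT 9 had the lowest for Lss and Cyp51.

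Further down, the sterol-trimming enzymes had positive log2 fold changes after TMM scaling, and none passed the adjusted edgeR test. Tm7sf2, a sterol ring reductase, was at 7.55, 10.2 and 7.81 FPKM in C52S and 7.32, 6.61 and 6.22 in WT (log2 fold change 0.63, SE 0.17, adjusted p = 0.0975 in edgeR). C52S 2 was well above the others, and the lowest C52S library was just above WT 6. The demethylation enzymes Msmo1, Nsdhl and Hsd17b7 had log2 fold changes of 0.44, 0.55 and 0.60 (SE 0.23, 0.21 and 0.18). Ebp, the isomerase that shifts the ring double bond, was at 47.2 ± 5.9 and 43.1 ± 1.54 FPKM (log2 fold change 0.42, SE 0.13, adjusted p = 0.121 in edgeR). The FPKM groups of Msmo1, Nsdhl, Hsd17b7 and Ebp overlapped; after TMM scaling those of Nsdhl, Hsd17b7 and Ebp did not.

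Sc5d, the desaturase of the step before the last, was the most abundant enzyme transcript per length and had the largest enzyme fold change. It was at 133, 106 and 98.8 FPKM in C52S and 68.7, 74.1 and 52 in WT, so the lowest C52S library was well above the highest WT library. The log2 fold change was 1.09 (SE 0.17, adjusted p = 0.0601 in edgeR), a fold of 2.13, and it ran from 0.97 to 1.19 when each library was left out. Dhcr7, the reductase of the final step, was at 7.72, 6.22 and 6.55 FPKM in C52S and 6.92, 7.96 and 5.37 in WT (log2 fold change 0.32, SE 0.12, adjusted p = 0.164 in edgeR). Its groups overlapped on FPKM and did not overlap after TMM scaling. The ratio of Sc5d to Dhcr7 within a library, which does not depend on library scaling, was between 15.1 and 17.2 in C52S and between 9.31 and 9.92 in WT. The gene (ENSMUSG00000032018) spans 42251595 to 42264256 of chromosome 9 in GRCm38, minus strand.

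**Figure D2:**
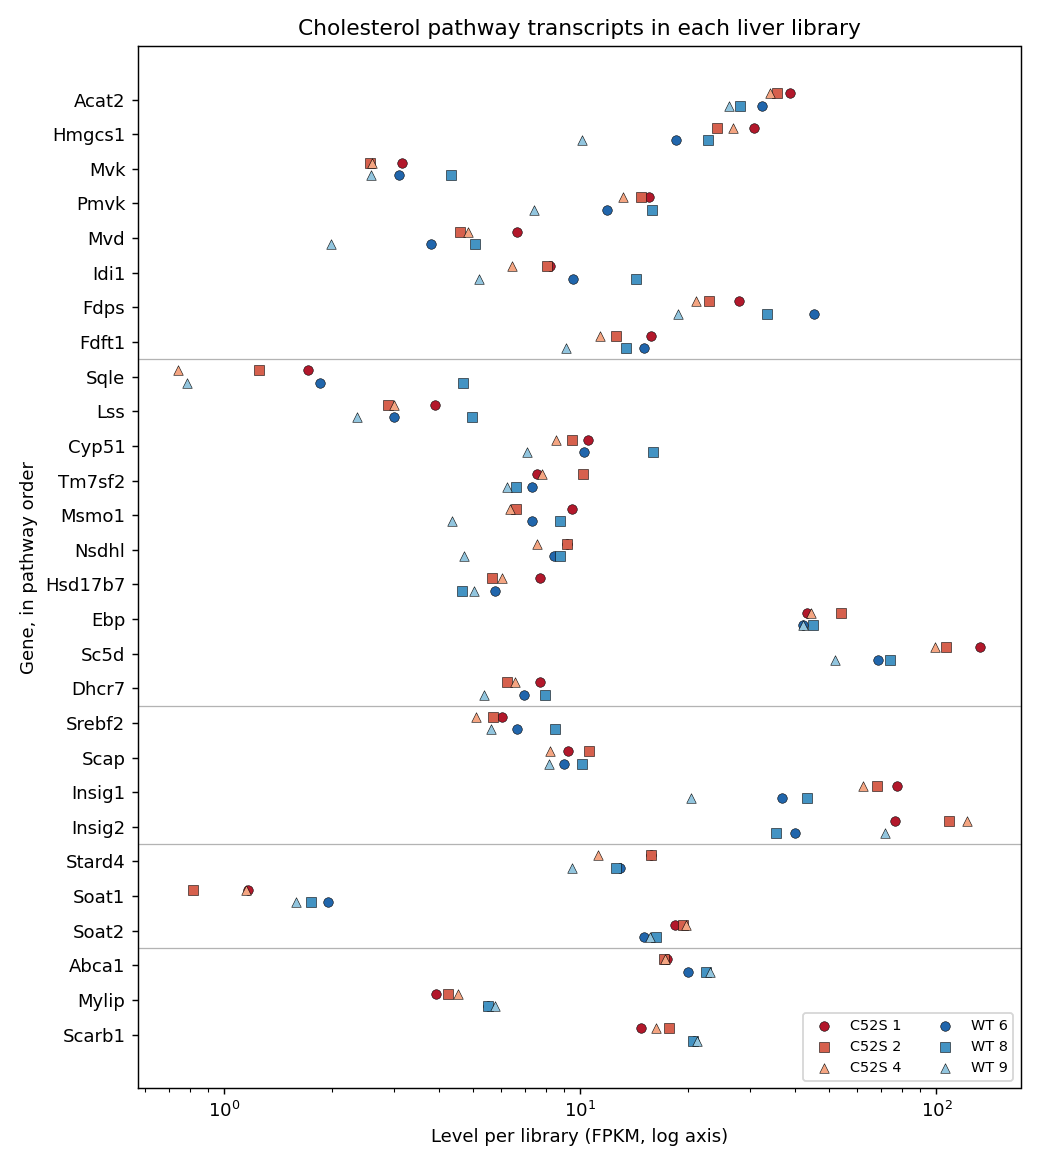
FPKM of the 28 genes in each of the 6 libraries on a log axis, in pathway order, with C52S libraries in red above WT libraries in blue for each gene. The red and blue points separate for Acat2, Hmgcs1, Tm7sf2, Sc5d, Insig1, Insig2 and Soat2 (red higher) and for Soat1, Abca1, Mylip and Scarb1 (blue higher), while WT 8 and WT 9 stand at opposite ends for many enzymes.

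A few libraries stood at the ends of the range for many of the 18 enzymes. WT 9 had the lowest TMM-scaled value of all 6 libraries for 14 of 18 enzymes, and C52S 1 had the highest for 11. The median deviation of the 18 enzymes from the midpoint of the group means was 0.37, 0.15 and 0.11 on the log2 scale in C52S 1, C52S 2 and C52S 4 and -0.02, -0.10 and -0.54 in WT 6, WT 8 and WT 9. The distance between WT 9 and WT 6 was therefore larger than that between WT 6 and C52S 4. Over both blocks, 10 of 18 enzymes were higher at an unadjusted p under 0.05 and 0 were lower, beside 11.5% and 14.8% of all genes.

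**Figure D3:**
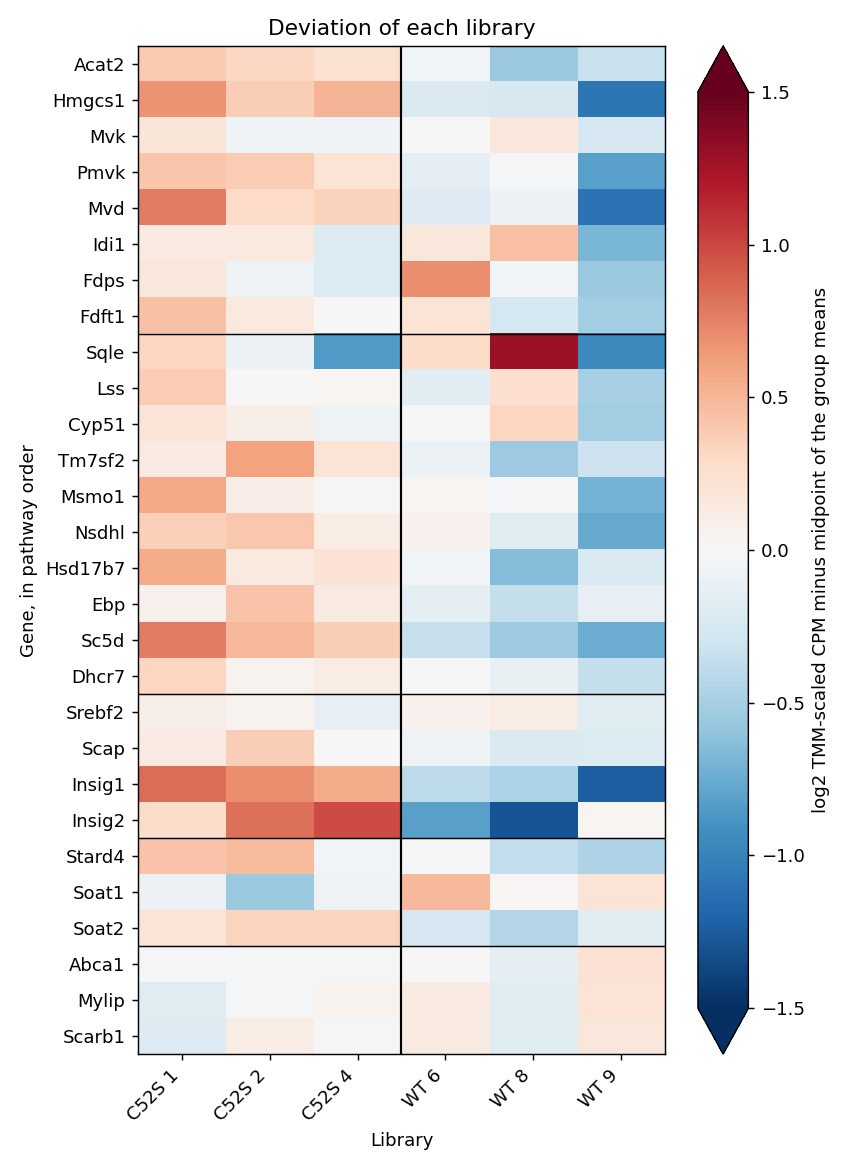
Deviation of each library (columns) for each gene (rows), as log2 TMM-scaled CPM (counts scaled to a common library size) minus the midpoint of the 2 group means; red is above and blue below, and the scale ends at 1.5 in each direction. WT 9 is blue in most enzyme rows, WT 8 is dark red for Sqle, and Insig1 and Insig2 are red in all C52S columns.

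Among the regulators, the INSIG genes had the largest log2 fold changes and Srebf2 the one nearest 0, and none passed the adjusted edgeR test. Srebf2, which encodes SREBP2, was at 6.02, 5.70 and 5.08 FPKM in C52S and 6.63, 8.49 and 5.59 in WT (log2 fold change 0.01, SE 0.11, adjusted p = 0.979 in edgeR; -0.31 with library totals only). Scap, the escort of SREBP2, was at 9.33 ± 1.17 and 9.10 ± 0.971 FPKM (log2 fold change 0.33, SE 0.12, adjusted p = 0.144 in edgeR), with FPKM groups that overlapped. The transcripts measure the amount of message, not how much SREBP2 was cut and active.

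Insig1, the retention protein that is itself an SREBP target, was at 77.3, 68.0 and 62.1 FPKM in C52S and 36.9, 43.2 and 20.4 in WT. The groups were far apart, and WT 9 was again the lowest. The log2 fold change was 1.36 (SE 0.23, adjusted p = 0.0645 in edgeR), a fold of 2.56, the largest of the 28 genes, and it was 1.14 without WT 9. The gene (ENSMUSG00000045294) spans 28071363 to 28078662 of chromosome 5, plus strand. The ratio of Insig1 to Srebf2 was 12.8, 11.9 and 12.2 in C52S and 5.57, 5.09 and 3.65 in WT.

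Insig2, the second retention protein, which in liver is known to be lowered by insulin rather than raised by SREBP2, was at 76.3, 109 and 122 FPKM in C52S and 40.1, 35.5 and 71.9 in WT. The lowest C52S library, C52S 1, was just above WT 9. The log2 fold change was 1.31 (SE 0.36, adjusted p = 0.102 in edgeR), and it ran from 1.06 without WT 8 to 1.77 without WT 9. On FPKM, Insig1 and Insig2 stood in opposite order within each genotype. C52S 1 was highest for Insig1 and lowest for Insig2 in its group, and WT 9 was lowest for Insig1 and highest for Insig2. After TMM scaling the opposite order held in C52S only. WT 6 was then above WT 8 for both genes (123 and 116 CPM for Insig1, 149 and 107 for Insig2). The ratio of Insig2 to Insig1 was 1.51 ± 0.492 in C52S and 1.81 ± 1.49 in WT, with overlapping groups. The gene (ENSMUSG00000003721) spans 121304353 to 121332589 of chromosome 1, minus strand.

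**Figure D4:**
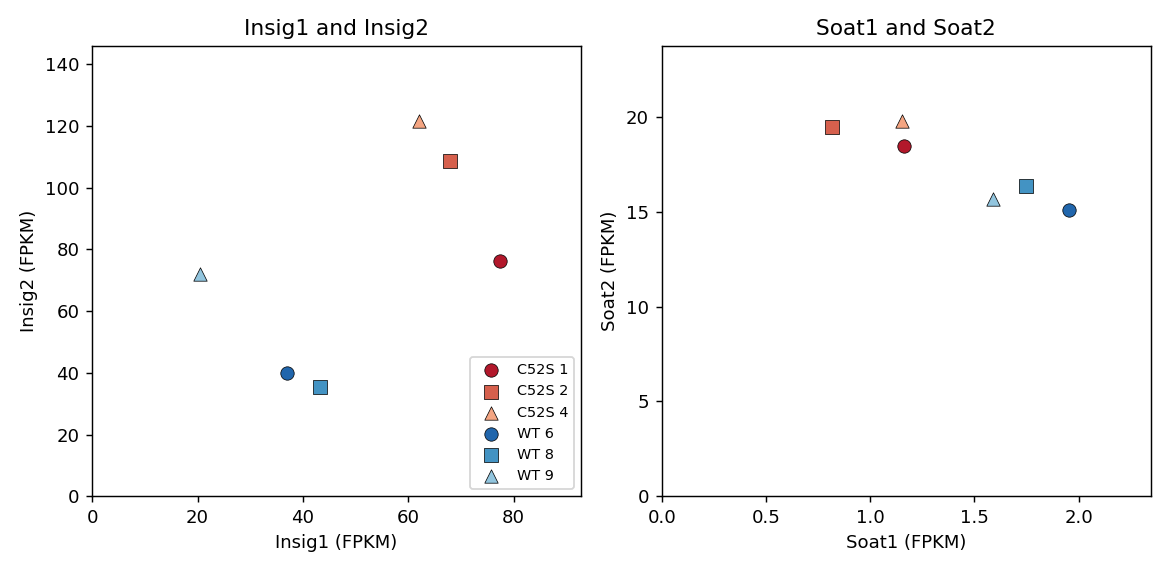
FPKM of Insig1 against Insig2 (left) and of Soat1 against Soat2 (right) in the 6 libraries, on linear axes from 0, with C52S in red and WT in blue. All C52S libraries lie to the right of the WT libraries for Insig1 and above them for Insig2, where C52S 1 (76.3) is just above WT 9 (71.9); in the SOAT pair they lie up and to the left.

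The esterification genes had log2 fold changes of opposite sign, and neither passed the adjusted edgeR test. Soat2, the acyltransferase that makes cholesteryl esters in hepatocytes, was at 18.4, 19.5 and 19.8 FPKM in C52S and 15.1, 16.3 and 15.7 in WT, groups that did not overlap (log2 fold change 0.58, SE 0.10, adjusted p = 0.066 in edgeR). Soat1, the form found in macrophages and many other cells, was at 1.16, 0.817 and 1.15 FPKM in C52S and 1.95, 1.75 and 1.59 in WT, and every C52S library lay below every WT library (log2 fold change -0.47, SE 0.18, adjusted p = 0.154 in edgeR; -0.33 without C52S 2). The ratio of Soat2 to Soat1 was 15.8, 23.8 and 17.2 in C52S and 7.73, 9.34 and 9.87 in WT, again without overlap. Of 11 macrophage and leukocyte markers, 6 were lower in C52S at an unadjusted p under 0.05 and 0 were higher. Their summed level was between 428 and 444 FPKM in C52S and between 630 and 838 in WT, none was listed at 0, and their part in the Soat1 result was not tested. Lyz2, a macrophage lysozyme, had a log2 fold change of -1.06 and Ptprc, the pan-leukocyte gene, of -0.86. The log2 fold change was negative for 8 of the 11 and positive for 3, the resident macrophage genes Marco (1.44), Clec4f (0.47) and Cd5l (0.21), which are named after their values were seen. Stard4, a sterol carrier of the cytosol, was at 15.8, 15.8 and 11.2 FPKM in C52S and 12.9, 12.6 and 9.46 in WT (log2 fold change 0.58, SE 0.18, adjusted p = 0.113 in edgeR), and its groups overlapped through C52S 4.

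The 3 genes of efflux and uptake lay below WT on FPKM and near 0 after TMM scaling. Abca1, which exports cholesterol to lipid-poor apolipoproteins, was at 17.5, 17.2 and 17.3 FPKM in C52S and 20.1, 22.5 and 23.1 in WT. Mylip, a ubiquitin ligase that marks lipoprotein receptors for destruction, was at 3.93, 4.25 and 4.53 FPKM in C52S and 5.52, 5.51 and 5.75 in WT. Scarb1, the high-density lipoprotein receptor, was at 14.8, 17.8 and 16.3 FPKM in C52S and 20.8, 20.7 and 21.2 in WT. On this scale all 3 were lower in every C52S library than in every WT library. After TMM scaling the groups overlapped, although not without WT 8, and the log2 fold changes were -0.05, -0.12 and -0.08 (SE 0.13, 0.13 and 0.14; edgeR adjusted p = 0.839, 0.611 and 0.757), while with library totals they were -0.34, -0.41 and -0.37. The ratio of Scarb1 to Soat2 within a library was 0.845 ± 0.0598 in C52S and 1.33 ± 0.058 in WT. Abca1 and Mylip are known targets of the oxysterol receptor LXR.

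For the 5 ratios given (Sc5d to Dhcr7, Insig1 to Srebf2, Insig2 to Insig1, Soat2 to Soat1 and Scarb1 to Soat2), chosen with the values known, a two-sided exact permutation test over the 6 libraries gave p = 0.1 for each but Insig2 to Insig1 (exact p = 1). This is the smallest p that 3 against 3 libraries allow, and it is 0.125 after Benjamini-Hochberg adjustment over the 5. The adjustment covers these 5 only and does not correct for their choice with the values known.

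Other genes of sterol metabolism were read from 4 lists, with counts at an unadjusted p under 0.05, since 0 genes in any of them passed the edgeR test over all genes. The shares of all genes at that threshold were 11.5% higher and 14.8% lower, and the higher counts of the SREBP processing and LXR lists lay near the first. Of 12 other synthesis genes, 6 were higher and 0 lower, with a median log2 fold change of 0.55. Acly, which makes cytosolic acetyl-CoA from citrate, was at 119, 66.9 and 96.6 FPKM in C52S and 39.5, 47.8 and 38.8 in WT (log2 fold change 1.46, SE 0.21, adjusted p = 0.0553 in edgeR). Pgrmc1, a haem-binding partner of cytochrome P450 enzymes, was at 0.73 on the log2 scale and Acss2, which makes acetyl-CoA from acetate, at 1.03. Of 13 genes of SREBP processing and sterol-regulated degradation, 2 were higher and 0 lower, with a median of 0.18. These were Sel1l (0.44) and Vcp (0.49), which serve protein removal from the endoplasmic reticulum, and Mbtps2, a protease that releases SREBPs, was at -0.34 on the log2 scale.

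Of 15 genes of uptake and intracellular movement, 4 were higher and 1 lower, with a median of 0.08. Osbp, an oxysterol-binding carrier, was at 0.48 on the log2 scale, the lipoprotein receptor gene Vldlr at 1.12 with 0.632 to 1.27 FPKM in C52S and 0.419 to 0.619 in WT, and Gramd1a, a sterol carrier at membrane contacts, at -0.48. Of 12 genes of the oxysterol and LXR response, 2 were higher and 3 lower, with a median of 0.23. The 2 were the half-transporters of sterol secretion into bile: Abcg8 was at 54.2, 57.4 and 59.0 FPKM in C52S and 17.5, 38.8 and 27.7 in WT (log2 fold change 1.34, SE 0.22), and Abcg5 had a log2 fold change of 1.10 (SE 0.26). Arl4c, a small GTPase, was at -1.01. On FPKM as deposited, groups did not overlap for 4 higher and 0 lower of the other synthesis genes, 2 and 4 of the processing genes, 2 and 6 of the uptake genes and 2 and 3 of the LXR genes. Over all genes these shares were 6.09% higher and 36.7% lower, near the lower counts of the last 3 lists.

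**Figure D5:**
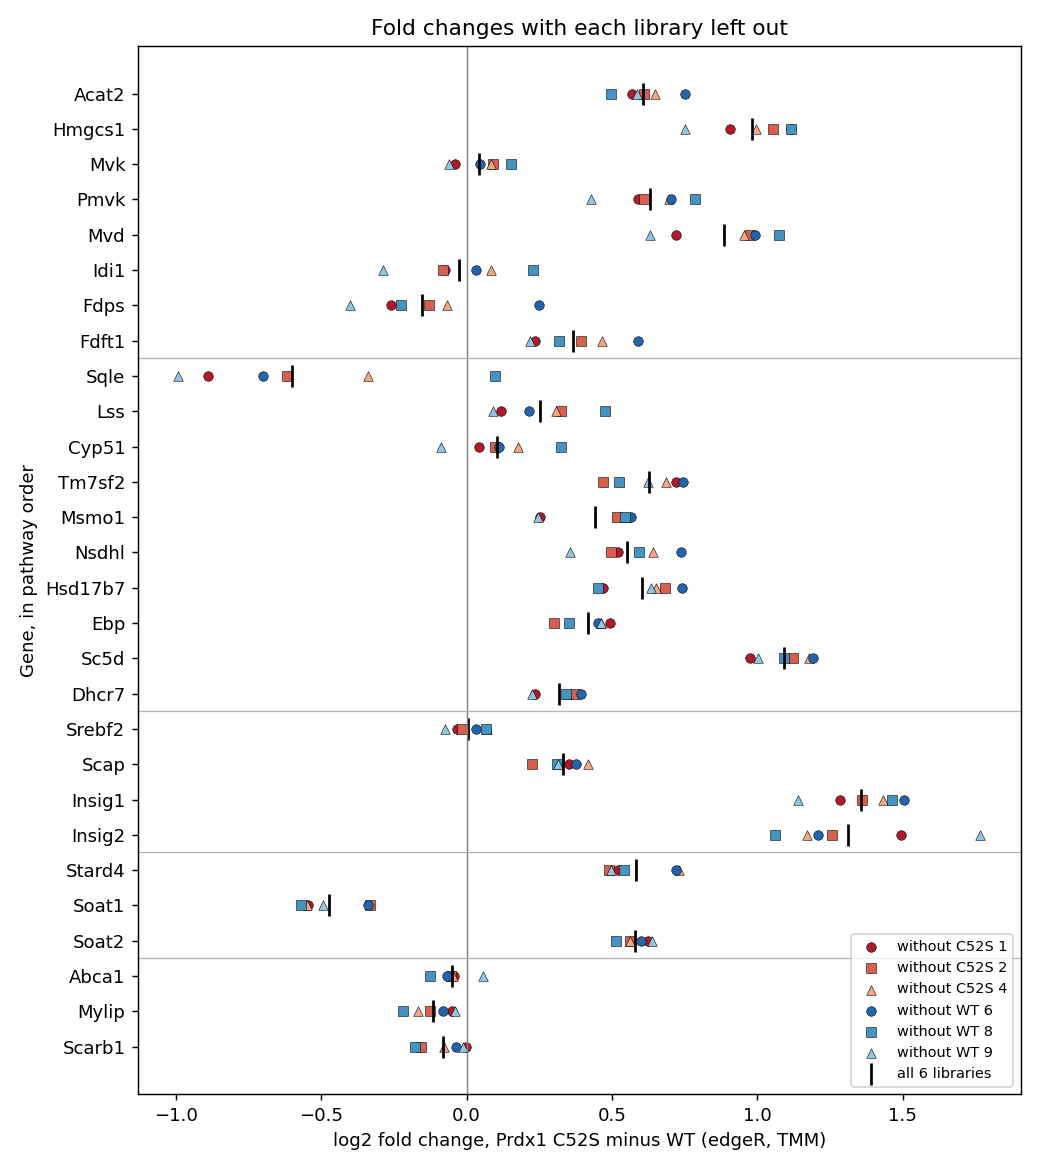
log2 fold changes of the 28 genes (edgeR, TMM) with each library left out in turn (coloured points) and with all 6 (black bars), in pathway order. Sqle spreads from -0.99 to 0.10 and Fdps from -0.40 to 0.25, while Sc5d and Soat2 keep within 0.97 to 1.19 and 0.51 to 0.64.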

How the data were processed

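Poly(A)-selected liver RNA of 6 mice was sequenced as paired reads with strand marking and molecular identifiers, per the labels' protocols. Each gene has, per library, a deposited FPKM value and a deposited estimated count, as the headers of the table state. Tools named without roles in the submitters' processing notes were StringTie 1.3.4d, HISAT2 2.0.4, cutadapt 1.9, UMI-tools, edgeR and DESeq2; strand use in counting is not given in the sources used here. Low estimated counts peak at 4 (6204 values, against 3538 at 3), so 1 fragment may be worth several counts and count models may overstate precision. The notes name mm9, but 26 of 28 members have exactly the GENCODE M21 coordinates of GRCm38. In that annotation, 4 members overlap a gene on the same strand (Fdps, Tm7sf2, Srebf2 and Scarb1) and 9 a gene on the other.

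Estimated counts were rounded and tested over 18931 genes with edgeR 4.0.16 (R 4.3.3): filterByExpr, TMM, robust quasi-likelihood F-test, two-sided, Benjamini-Hochberg adjustment, no covariate or block. The SE is the absolute log2 fold change over the square root of F. DESeq2 1.42.0 and limma 3.58.1 were alternatives; the fit was tested on simulated data. All 28 members are named. Of each other pathway list the 3 genes with the smallest p are named, and of the markers Lyz2, Ptprc, Krt19 and Glul. The markers Col1a1 and Alb, planned to be named as well, had log2 fold changes of -1.02 and 0.48. Neither passed the adjusted edgeR test. The markers Spp1, Cyp2e1, Clec4f, Cd5l and Marco are named after their values were seen. The members and lists were chosen with earlier results of these data known.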

Additional observations from a re-analysis of the deposited data

How the results depend on the processing

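Of the 28 log2 fold changes, 20 kept their sign in all 15 alternatives and 8 changed it in at least 1; these 8 had values near 0 or wide spreads, and the cause was not tested. With library totals, limma on log2(FPKM + 1), limma on log2(FPKM + 0.1) and limma without the filter, Mvk was at -0.28, -0.19, -0.24 and -0.19, Lss at -0.083, -0.023, -0.018 and -0.023, Cyp51 at -0.23, -0.14, -0.15 and -0.14, and Srebf2 at -0.31, -0.25, -0.28 and -0.25. Srebf2 was also at -0.0067 without the filter on low counts, -0.0057 with counts divided by 4 and -0.011 with voom, and Idi1 at 0.022 with voom. With each library left out, values ran from -0.059 (without WT 9) to 0.15 for Mvk, also below 0 without C52S 1 (-0.04), and from -0.29 to 0.23 (without WT 8) for Idi1, also above 0 without C52S 4 (0.083) and WT 6 (0.033). They ran from -0.40 to 0.25 (without WT 6) for Fdps, from -0.99 to 0.096 (without WT 8) for Sqle, from -0.089 (without WT 9) to 0.32 for Cyp51 and from -0.12 to 0.055 (without WT 9) for Abca1. Srebf2 ran from -0.073 (without WT 9) to 0.072, also below 0 without C52S 1 (-0.033) and C52S 2 (-0.015).

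Members called higher at an adjusted p under 0.05 numbered 12 with DESeq2, 7 with voom, 3 without the filter on low counts and 0 to 4 with a library left out. Over all genes the higher share was 8.02% with DESeq2, 5.4% with voom, 2.7% without WT 8 and 0.321% without WT 9. It was not computed for the fit without the filter or with another library left out. At an unadjusted p under 0.05, 7 were higher with library totals and 6 in each limma fit on FPKM, and 4 were lower in all of these. With a library left out, 0 to 1 were lower and 11 to 16 higher. Over all genes, 3.73% were higher and 30.4% lower with library totals. These shares were not computed for the limma fits or with a library left out. Groups did not overlap for 7 higher and 4 lower members with library totals and on FPKM, and for 1 to 4 lower members with a library left out. Over all genes, groups did not overlap for 6.09% higher and 36.7% lower on FPKM. The lower share was 21.4% without WT 8 and 26.5% without WT 9. The median of the members was 0.094 with library totals and 0.10, 0.11 and 0.10 in the limma fits. The ratio of Soat2 to Soat1 differed by 1.06 on the log2 scale, and by 0.71 with 1 FPKM added, an alternative chosen after seeing the data. The estimated counts give no molecule counts, so the number of fragments behind a value is unknown.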
